A study of Mus musculus with 14 samples.

Results

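The mitochondrial ribosomal protein genes were taken as every protein-coding gene of the count table whose mouse symbol begins with Mrpl or Mrps and a number, together with Dap3. This rule found 79 of the 27179 genes, and it used no measured value. Of these, 51 encode proteins of the large subunit and 27 of the small subunit. Mrps18a and Mrps30 carry small-subunit symbols but belong to the large subunit in the universal nomenclature (mL66 and mL65). Mrps36 has the family symbol and is a part of the 2-oxoglutarate dehydrogenase complex, so it was counted among the 79 and in neither subunit. The annotation lists 6 pseudogenes of these symbols, and 0 of them are in the table.

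The mitochondrial ribosome translates the few messenger RNAs that the mitochondrial genome itself encodes, all of them for subunits of oxidative phosphorylation. Its ribosomal RNAs are mitochondrial transcripts, whereas its proteins are encoded in the nucleus, made in the cytosol and imported. Some of the proteins have bacterial homologues and others were acquired by mitochondria. Foxp3-expressing regulatory T cells (Tregs), which hold other immune cells in check, are known to lean on oxidative phosphorylation.

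Polyadenylated RNA was sequenced by an ultra-low-input method from Tregs that carry yellow fluorescent protein from the Foxp3 locus. The TIL Flox group (3 libraries) came from MC38 tumors, grown in the flank from a mouse colon cancer line, in B6.IL23RFlox FoxP3Cre-YFP mice at the endpoint of tumor growth. The TIL WT group (4 libraries) came from the same kind of tumor in B6.IL23RWT FoxP3Cre-YFP mice. Spleen Flox (3 libraries) and Spleen WT (4 libraries) were the splenic Tregs of these 2 genotypes. All 4 groups thus carry the Foxp3-driven Cre recombinase with its fluorescent tag, and the floxed Il23r alleles, which encode the specific subunit of the IL-23 receptor, are meant to be lost in Tregs of the Flox mice only. The study set Flox against WT within each tissue. The labels do not say whether libraries of a group came from separate mice, so p-values measure the spread between these libraries.

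The libraries held between 4859099 and 10333892 counts and between 13657 and 15312 detected genes. All 7 Treg markers, Foxp3 and Il2ra among them, were detected in every library, with Foxp3 between 98.2 and 268 CPM (counts relative to the size of the library). Reads of Il23r did not follow the labels: they numbered 17 in the 3 TIL Flox libraries, 2 in the 4 TIL WT libraries, 10 in the 3 Spleen Flox libraries and 2 in the 4 Spleen WT libraries. The TIL Flox libraries held 4, 7 and 6 of them, while 9 of the 10 in Spleen Flox came from Spleen Flox 3. Which exons the Flox allele loses is unknown here, so reads outside them would not test the deletion, and Flox and WT here mean the libraries labelled so. Sex went with genotype: Y-linked genes summed to 401 to 974 CPM in the Flox-labelled libraries, against 0.141 to 1.56 CPM in 6 of the 8 WT-labelled ones. In both WT replicate 2 libraries Xist and Y-linked reads occurred together, with Y-linked sums of 127 CPM in TIL WT 2 and 37.6 CPM in Spleen WT 2. Genotype and sex therefore cannot be told apart in any Flox and WT comparison. Members took 0.0609 to 0.149% of the counts of a library, and 0 to 2 of the 79 had no count in it.

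Per kilobase of exon, the members ran from small proteins of the large subunit with high levels to transcripts near the limit of detection. By median over the 14 libraries, Mrpl33, a small protein with a bacterial homologue, stood highest at 79.8 CPM per kb. Mrpl18, the uL18m protein of the central protuberance, followed at 54.2 CPM per kb and Mrpl14 at 20.5 CPM per kb. By mean over the libraries the 5 highest were Mrpl33 (153 CPM per kb), Mrpl18 (45.5 CPM per kb), Mrpl34 (37.5 CPM per kb), Mrpl14 (29.2 CPM per kb) and Mrpl10 (27.1 CPM per kb). For Mrpl34 and Mrpl10 the mean rests on a few high libraries, since their medians were 4.16 and 5.51 CPM per kb.

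The 5 lowest by mean were Mrps17 (0.115 CPM per kb), Mrpl36 (0.296 CPM per kb), Mrpl48 (0.377 CPM per kb), Mrpl47 (0.528 CPM per kb) and Mrpl51 (0.708 CPM per kb). Of these, Mrps17, Mrpl48, Mrpl47 and Mrpl51 have long annotated exons, of 6003, 4696, 3364 and 3427 bases, which lower a level per kb. Mrpl36, a small bacterial-type protein of the large subunit, had no count in 10 of 14 libraries. A count of 0 allows up to 3 counts, which correspond to 0.234 to 0.586 CPM over the 14 libraries, for counting error only. It reached 4.10 CPM, from 49 counts, in Spleen Flox 3. The subunits overlapped widely in level: the median member level was 3.48 CPM per kb for the large subunit and 2.13 CPM per kb for the small subunit. Members with a bacterial homologue had a median of 3.21 CPM per kb and mitochondria-specific members 2.94 CPM per kb.

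**Figure D1:**
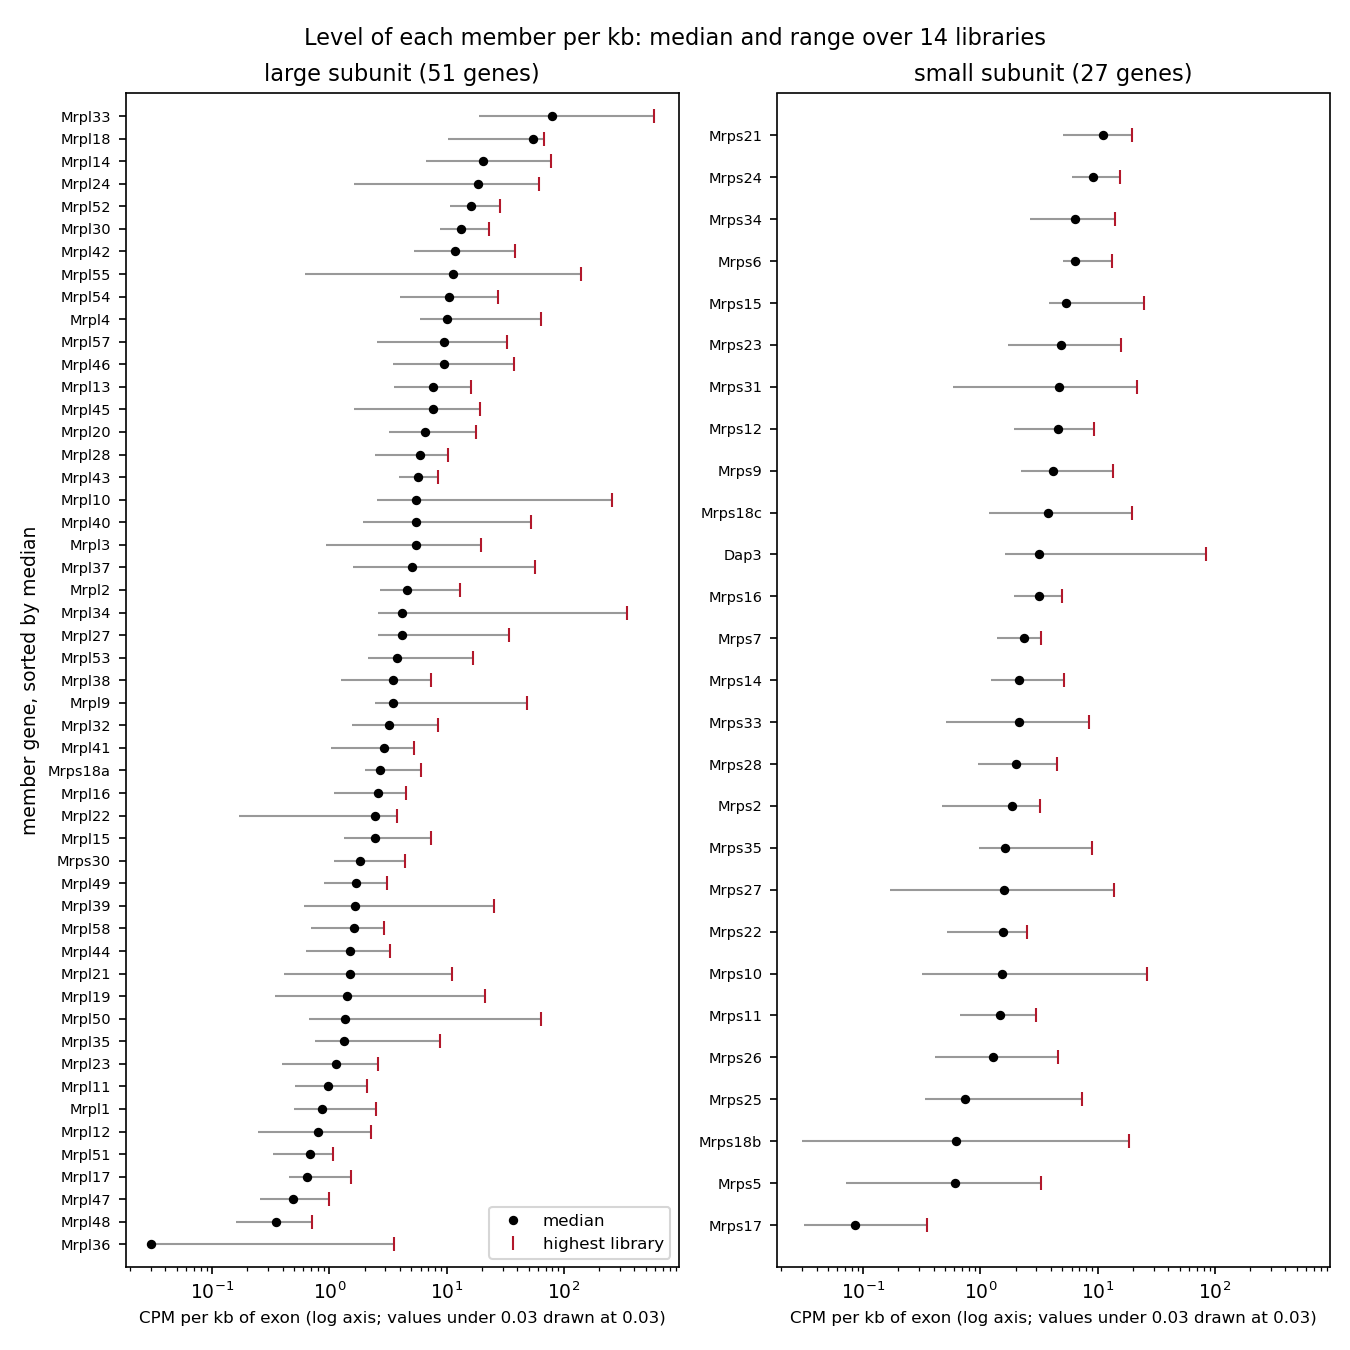
Level of each large-subunit (left) and small-subunit (right) member in CPM per kb of exon on a log axis; the dot is the median, the grey line the range and the red tick the highest of the 14 libraries. Mrpl33 and Mrpl18 lead by median, at 79.8 and 54.2 CPM per kb, and long lines to the right mark members such as Dap3, Mrpl10 and Mrpl34 that were far above their median in 2 or 3 libraries.

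Sites of the ribosome did not share 1 level per kb, a measure that also depends on the annotated exon length. At the polypeptide exit tunnel, where the new chain leaves the large subunit, the median was 18.7 CPM per kb for Mrpl24. It was 7.64 CPM per kb for Mrpl45, which faces the inner membrane, 2.46 CPM per kb for Mrpl22 and 0.491 CPM per kb for Mrpl47. Before division by length Mrpl22 and Mrpl47 were close, with medians of 1.78 and 1.65 CPM over 722 and 3364 bases of exon. In the L7/L12 stalk, which recruits the translation factors, the median was 10.5 CPM per kb for Mrpl54, 5.51 CPM per kb for Mrpl10 and 0.802 CPM per kb for Mrpl12. In the head and decoding centre of the small subunit it was 4.58 CPM per kb for Mrps12, 3.16 CPM per kb for Dap3 (mS29, a GTP-binding protein also studied as a death-associated protein) and 2.36 CPM per kb for Mrps7. The 3 related Mrps18 proteins stood at 3.81 CPM per kb for Mrps18c, 2.72 CPM per kb for Mrps18a and 0.621 CPM per kb for Mrps18b.

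Members differed in how widely they ranged. Of the 77 detected in every library, 26 had a highest library under 5 times their lowest and 46 under 10 times, and the median ratio was 6.68. Mrps7, a protein of the small-subunit head, is an example of a steady member. It had 5.01, 6.51 and 4.28 CPM in the TIL Flox libraries, 3.52, 5.16, 2.96 and 5.64 CPM in TIL WT, 2.71, 3.73 and 4.86 CPM in Spleen Flox and 4.81, 4.45, 4.34 and 4.89 CPM in Spleen WT. Mrpl43 ran between 5.52 and 11.8 CPM and Mrps16 between 4.94 and 12.7 CPM over all 14 libraries. Others ranged widely on both sides of their median. Mrpl24 ran between 2.54 and 94.9 CPM around a median of 29.1 CPM. Mrps31 ran between 0.893 and 32.9 CPM around a median of 7.14 CPM, with 32.9, 32.4 and 27.1 CPM in its highest libraries.

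Mrpl34, a bacterial-type protein of the large subunit, ranged widely through high libraries. It had 211, 2.68 and 3.38 CPM in TIL Flox, 3.71, 2.37, 1.83 and 4.41 CPM in TIL WT, 2.11, 2.24 and 28.8 CPM in Spleen Flox and 51.0, 1.72, 1.58 and 2.26 CPM in Spleen WT. The high libraries were 1 of 3 in TIL Flox, 1 of 3 in Spleen Flox and 1 of 4 in Spleen WT, and the other 11 lay at 4.41 CPM or less. Mrpl9 was high in 1 TIL WT library (88.0 CPM), in 2 Spleen Flox libraries (125 and 86.3 CPM) and in 1 Spleen WT library (68.8 CPM), and in the other 10 it lay between 6.35 and 11.2 CPM.

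With a high value taken as at least 5 times the member's own median over the 14 libraries and at least 10 counts, a limit set after the values were seen, 23 of 79 members (29.1%) had at least 1. There were 36 such values: 15 members had 1, 4 had 2 and 4 had 3 or more. They came from between 1 and 5 members in each library and held 25.6% of all member counts. The same limit was passed by 5712 of the 12008 genes tested over the 14 libraries (47.6%), a comparison that was not tested. Members with and without a high value had median exonic lengths of 1498 and 1357 bases.

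**Figure D2:**
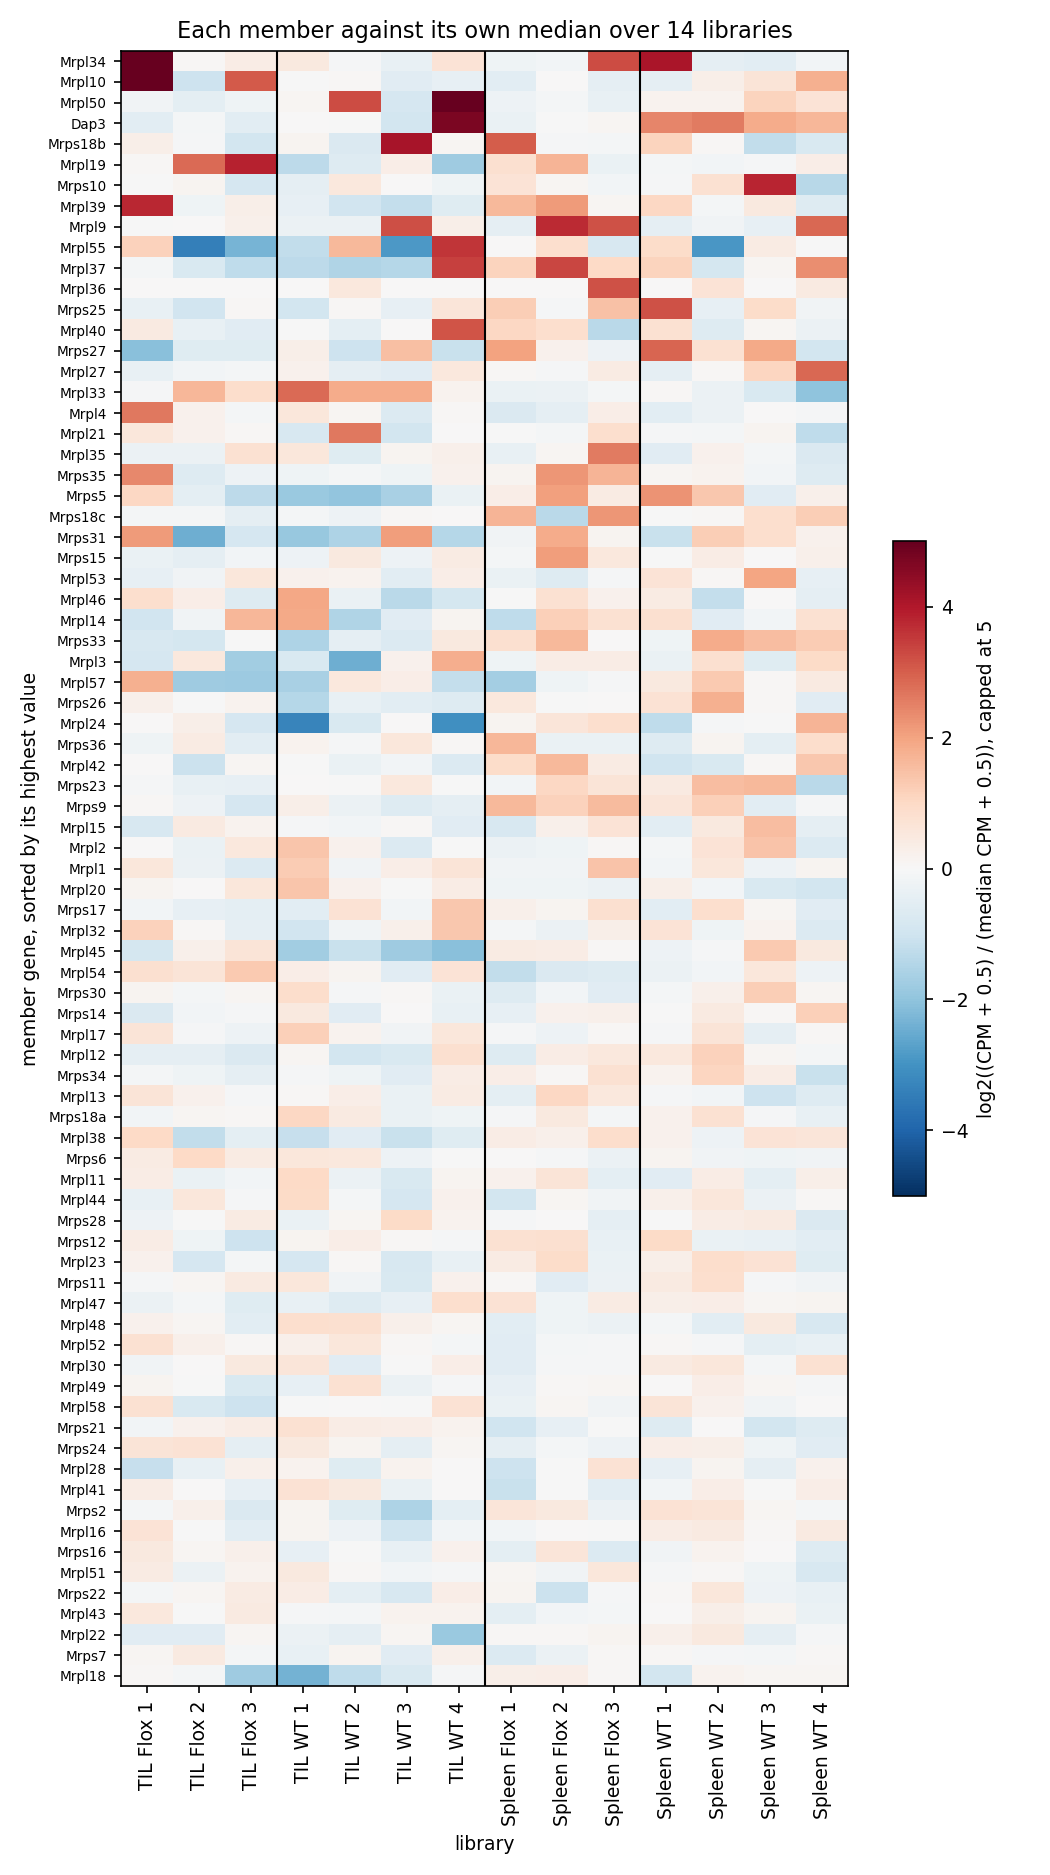
Each member (rows, sorted by highest value) in each library (columns), as log2 of CPM + 0.5 over its own median + 0.5, with colour capped at 5. Dark red cells are high values, such as Mrpl34 and Mrpl10 in TIL Flox 1 or Dap3 and Mrpl50 in TIL WT 4, and fewer of them stand in the lower rows.

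High values weighed on the summed level of the set most in TIL Flox 1 and TIL WT 4, where they gave 828 and 854 CPM. The 79 members summed to 1518, 692 and 717 CPM in TIL Flox, against 818, 655, 717 and 1445 CPM in TIL WT. In spleen they summed to 623, 1013 and 857 CPM in the Flox libraries, against 797, 821, 773 and 861 CPM in WT. Tumor groups were the wider ones, with 976 ± 470 CPM in TIL Flox (SD, n = 3) and 909 ± 364 CPM in TIL WT (SD, n = 4), against 831 ± 197 CPM in Spleen Flox (SD, n = 3) and 813 ± 37.3 CPM in Spleen WT (SD, n = 4). In TIL Flox 1, Mrpl10 and Mrpl34 alone gave 439 and 211 CPM, and in TIL WT 4, Dap3, Mrpl55 and Mrpl50 gave 420, 145 and 135 CPM.

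Without the high values the sums were 529 to 690 CPM in TIL Flox, 539 to 609 CPM in TIL WT, 614 to 808 CPM in Spleen Flox and 574 to 742 CPM in Spleen WT. The median over members moved little: it averaged 4.68 ± 1.31 CPM in TIL Flox, 4.57 ± 0.328 CPM in TIL WT, 5.30 ± 0.244 CPM in Spleen Flox and 5.53 ± 0.605 CPM in Spleen WT. No group separated from its counterpart of the other genotype on the sum or on the median. In bulk samples, fewer cells of a type and less RNA per cell cannot be told apart.

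**Figure D3:**
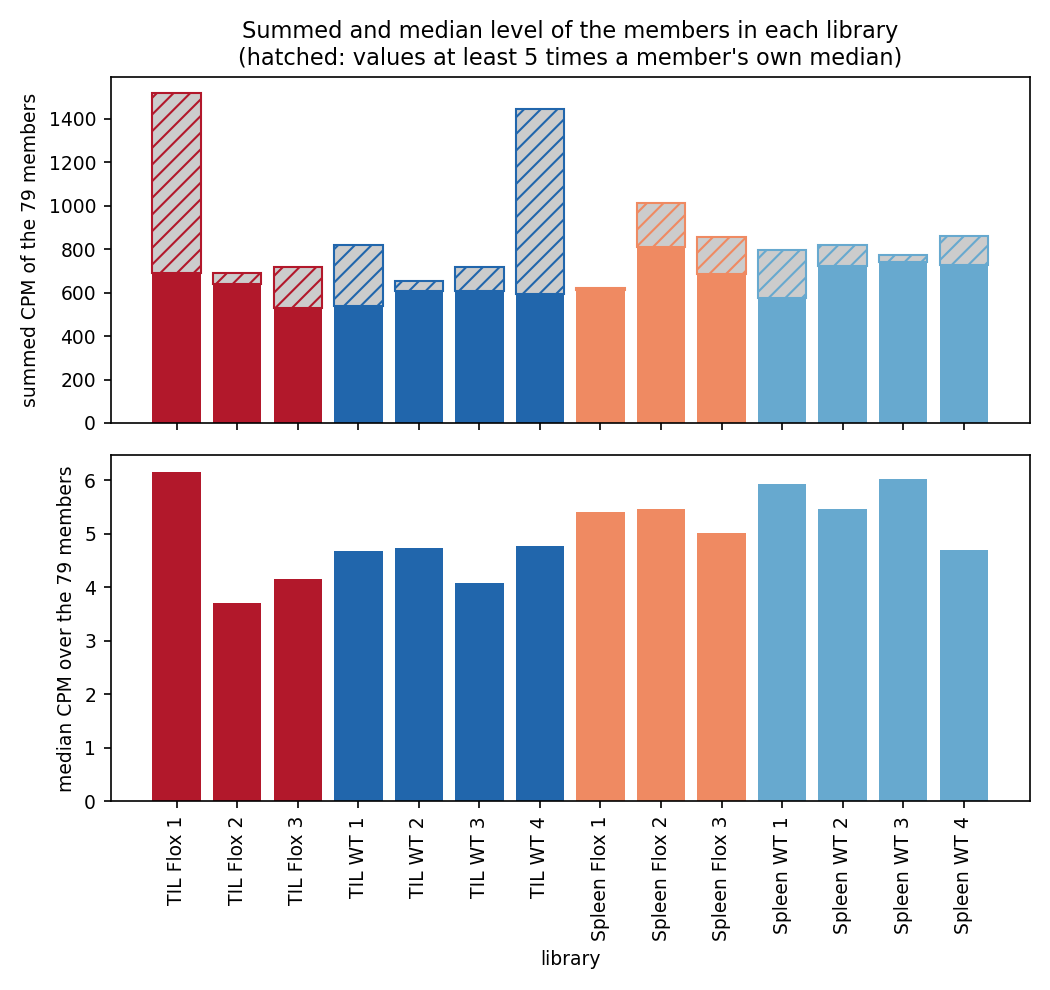
Summed CPM (upper panel) and median CPM (lower panel) of the 79 members in each library; hatching marks the part from values at least 5 times a member's own median. The sums of TIL Flox 1 (1518 CPM) and TIL WT 4 (1445 CPM) stand above the other 12 through hatched values, and the median stays between 3.70 and 6.16 CPM.

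The share of the small subunit in the summed CPM separated tumor from spleen in the Flox libraries. It was 12.4, 18.2 and 15.4% in TIL Flox and 15.6, 18.8, 22.0 and 37.2% in TIL WT, where the highest value rests on Dap3 in TIL WT 4. It was 29.0, 23.1 and 22.3% in Spleen Flox and 36.9, 36.4, 31.4 and 18.8% in Spleen WT. The Flox libraries of tumor and spleen did not overlap in this share, while those of WT did. Between the same Flox groups 33% of all genes tested did not overlap either. High values of large-subunit members entered the TIL Flox shares. These included Mrpl10 and Mrpl34 (439 and 211 CPM) in TIL Flox 1, Mrpl19 (52.8 CPM) in TIL Flox 2, and Mrpl19 and Mrpl10 (106 and 82.0 CPM) in TIL Flox 3.

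Promoters of the members were matched in RefSeq (GRCm38.p6, 250 bases before to 50 after each start) for 69 of the 79 genes, with 75 promoters. Genes of this family are known to be switched on through ETS-type sites bound by GABP, and through sites for NRF1 and YY1. The letters CCGGAAG (ETS), GCGCATGCG (NRF1) and AAGATGGCG (YY1) were searched on both strands, and none of the 3 contains another. CCGGAAG was found in 26 of 75 member promoters (34.7%), against 8.86% of all 32851 promoters and 18.45% of the 11545 promoters of genes tested over the 14 libraries. GCGCATGCG was found in 7 (9.33%), against 1.75% of all and 3.74% of those of tested genes, and AAGATGGCG in 8 (10.7%), against 1.40% and 3.17%. At least 1 of the 3 was in 36 of 75 (48%), against 11.4% of all and 23.7% of those of tested genes. Of the members with a high library, 13 of 19 with a promoter held a motif, and of the others 23 of 50.

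The 250 bases before the start are shown for 3 members, chosen as a member with no high library and 2 kinds of motif, a member with no high library and a repeated motif, and the member with the highest CPM in 1 library. Capitals mark the motifs. In Mrpl22 (an exit tunnel protein, chr11:58171414-58171663, + strand) CCGGAAG begins 53 and GCGCATGCG 33 bases before the start. In Mrpl43 (chr19:45006443-45006692, − strand) CCGGAAG begins 56 and 12 bases before it. In Mrpl10 (chr11:97041332-97041581, + strand) the reverse complement of GCGCATGCG begins 135 bases before it. A match is a description of these letters and no evidence of binding.
Mrpl22: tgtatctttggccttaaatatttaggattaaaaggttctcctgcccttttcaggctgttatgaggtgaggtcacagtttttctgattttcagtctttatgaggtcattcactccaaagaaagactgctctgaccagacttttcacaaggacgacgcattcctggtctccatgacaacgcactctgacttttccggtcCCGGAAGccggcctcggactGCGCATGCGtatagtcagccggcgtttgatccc
Mrpl43: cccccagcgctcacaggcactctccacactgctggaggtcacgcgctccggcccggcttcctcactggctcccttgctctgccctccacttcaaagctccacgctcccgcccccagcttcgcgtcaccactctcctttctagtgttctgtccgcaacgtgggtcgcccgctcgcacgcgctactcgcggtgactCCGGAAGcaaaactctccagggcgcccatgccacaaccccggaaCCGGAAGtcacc
Mrpl10: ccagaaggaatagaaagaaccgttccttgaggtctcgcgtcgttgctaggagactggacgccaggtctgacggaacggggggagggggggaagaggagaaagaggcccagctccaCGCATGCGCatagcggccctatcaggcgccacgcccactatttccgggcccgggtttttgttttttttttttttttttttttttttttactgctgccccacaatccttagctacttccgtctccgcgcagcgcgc

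In tumor, no member passed the test between Flox and WT. Of 79 members, 74 were tested, and 0 had an adjusted p under 0.05 with edgeR's quasi-likelihood test (Benjamini-Hochberg over 10777 genes), where 0% of all genes passed. At an unadjusted p under 0.05, 6 members were higher in Flox (background 5%) and 1 was lower (background 3.08%). DESeq2 called 3 of the 45 members it could adjust (Mrpl10, Mrpl19 and Mrpl50; background 2.54%), and limma voom called 0 (background 0.00928%). Groups did not overlap for 4 of 74 members (Mrpl39, Mrpl45, Mrps23 and Mrps26), against 5% of all genes, so the share of members was near the background.

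Mrpl45, at the exit tunnel (chr11:97314923-97329920, mm10), had 9.82, 21.9 and 29.6 CPM in TIL Flox, against 5.27, 8.28, 5.07 and 3.92 CPM in TIL WT. Every TIL Flox library lay above every TIL WT library, with a log2 fold change of 1.84 ± 0.51 (SE), an unadjusted p of 0.00744 and an edgeR adjusted p of 0.584. Mrpl10, of the stalk, had 439, 4.34 and 82.0 CPM in TIL Flox, against 9.38, 9.79, 6.19 and 6.87 CPM in TIL WT. Its TIL Flox libraries lay on both sides of the TIL WT range. The log2 fold change was 4.42 ± 1.28 (edgeR adjusted p = 0.584), and 2.39 without TIL Flox 1.

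Mrpl19, a bacterial-type protein at the subunit interface, had 7.31, 52.8 and 106 CPM in TIL Flox, against 2.54, 4.30, 8.87 and 1.72 CPM in TIL WT (log2 fold change 3.61 ± 1.00, edgeR adjusted p = 0.584). Mrpl39, a mitochondria-specific exit tunnel protein, had 58.4, 3.19 and 4.84 CPM in TIL Flox, against 2.73, 1.72, 1.41 and 2.33 CPM in TIL WT. Its groups did not overlap, but the log2 fold change of 3.43 ± 1.02 became 0.97 without TIL Flox 1. The values of Mrpl50 ran the other way through 2 WT libraries, with 2.51, 1.91 and 2.36 CPM in TIL Flox, against 3.13, 32.1, 1.41 and 135 CPM in TIL WT (log2 fold change -4.21 ± 1.60, and -2.43 without TIL WT 4). Mrps27 and Mrpl40 came next among the lower ones, with log2 fold changes of -1.60 ± 0.97 and -1.68 ± 1.04. Without TIL WT 3 Mrps27 was at -0.56. For Mrpl40 the value rests on 68.3 CPM in TIL WT 4, without which it was 0.05.

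Dap3 had 10.8, 14.7 and 10.7 CPM in TIL Flox, against 15.8, 15.6, 8.02 and 420 CPM in TIL WT. The log2 fold change of -3.22 ± 1.57 (edgeR adjusted p = 0.584) became -0.12 without TIL WT 4, so its size came from that library. B cell markers, which the sort should exclude, summed to 49.5 to 54.9 CPM over 8 genes in TIL Flox, with Pax5 and Cd22 at 0, and to 62.1 to 309.8 CPM in TIL WT, with Pax5 at 0, and their part in these values was not tested.

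In spleen, Dap3 was the member with the smallest p. Its gene lies at chr3:88920803-88951213 (mm10). It had 12.3, 15.7 and 17.0 CPM in Spleen Flox, against 87.6, 96.8, 58.6 and 51.1 CPM in Spleen WT. All 3 Flox libraries lay below all 4 WT libraries, and none of the values was a lone high library. The log2 fold change was -2.29 ± 0.45 (SE), with an unadjusted p of 0.00105 and an edgeR adjusted p of 0.674. Leaving out any 1 library kept it between -2.43 and -2.15, with adjusted p between 0.622 and 0.778. The call depended on the tool: DESeq2 gave an adjusted p of 1.44e-06 and limma voom 0.257.

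B cell markers separated the genotypes in spleen as Dap3 did. They summed to 442 to 578 CPM in Spleen Flox, against 739 to 2098 CPM in Spleen WT, and these ranges did not overlap, with all 8 markers detected in both groups. Exons of Dap3 overlap on the opposite strand with Ash1l, a histone methyltransferase gene, which had 180, 263 and 233 CPM in Spleen Flox, against 298, 86.4, 445 and 330 CPM in Spleen WT. The Ash1l ranges overlapped (log2 fold change -0.37 ± 0.51, edgeR adjusted p = 0.887). The part of these and of sex in the Dap3 values was not tested.

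Among the 76 members tested in spleen, 0 passed with edgeR (background 0%) and 0 with limma voom (background 0%), while DESeq2 called Dap3 alone (1 of 76, background 1.08%). At an unadjusted p under 0.05, 1 was higher (Mrps35, background 4.25%) and 1 lower (Dap3, background 2.61%). Groups did not overlap for 6 of 76 members (Dap3, Mrpl16, Mrpl50, Mrpl54, Mrpl57 and Mrps30), against 5.88% of all genes.

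Mrps35, a mitochondria-specific protein of the small subunit, had 7.42, 33.0 and 22.6 CPM in Spleen Flox, against 7.17, 7.65, 6.02 and 4.14 CPM in Spleen WT (log2 fold change 1.74 ± 0.57, edgeR adjusted p = 0.674). The higher 2 of its Flox libraries stood apart and the remaining one lay inside the WT range. Mrpl35 had a like log2 fold change, 1.74 ± 0.79, but from Spleen Flox 3 (32.6 CPM), without which it was 0.13. Mrps9 and Mrpl39 followed, at 1.06 ± 0.54 and 1.26 ± 0.65, the value of Mrpl39 being 0.80 without Spleen Flox 2. On the lower side Mrpl57 had 8.02, 23.3 and 26.1 CPM in Spleen Flox, against 38.5, 67.8, 28.4 and 37.8 CPM in Spleen WT (log2 fold change -1.17 ± 0.58, edgeR adjusted p = 0.674). Mrpl50 and Mrpl54 had log2 fold changes of -0.96 ± 0.43 and -0.96 ± 0.44, and neither passed.

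**Figure D4:**
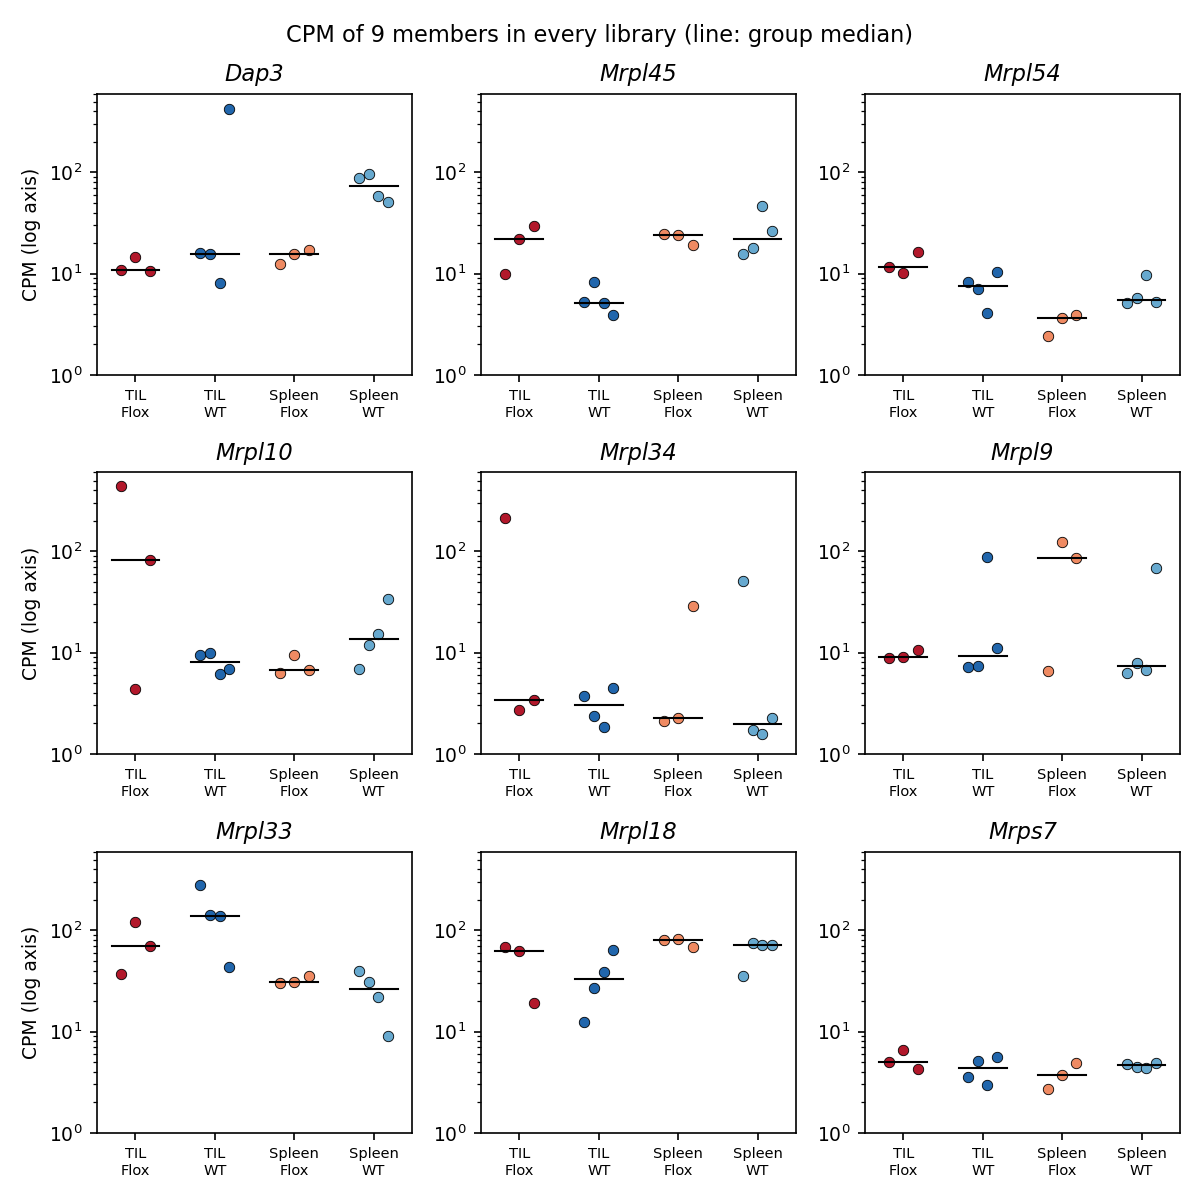
CPM of 9 members in each library on a log axis, by group, with the group median as a line. Dap3 in Spleen Flox (12.3 to 17.0 CPM) lies under Spleen WT (51.1 to 96.8 CPM), Mrpl45 is lowest in TIL WT, Mrpl10, Mrpl34 and Mrpl9 show isolated high libraries, and Mrps7 is level.

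Tumor against spleen gave 1 passing member of 75 tested in each genotype with edgeR, and not the same one. Of all genes tested, 7.87% passed in Flox and 7.1% in WT. In Flox, Mrpl54 (chr10:81264722-81266926, mm10), a mitochondria-specific protein at the stalk, rose in tumor: it had 11.5, 10.1 and 16.4 CPM in TIL Flox, against 2.41, 3.61 and 3.94 CPM in Spleen Flox. The log2 fold change was 1.94 ± 0.43 (SE, edgeR adjusted p = 0.0460). All 3 tumor libraries lay above all 3 spleen libraries. Leaving out any 1 of the 6 libraries ended the call, with adjusted p between 0.0674 and 0.122 and log2 fold changes between 1.73 and 2.10.

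In WT, Mrpl45 fell in tumor, to 5.27, 8.28, 5.07 and 3.92 CPM in TIL WT, against 15.5, 17.9, 46.9 and 26.3 CPM in Spleen WT. All 4 tumor libraries lay below all 4 spleen libraries. The log2 fold change was -2.24 ± 0.53 (SE, edgeR adjusted p = 0.0395). It stayed between -2.45 and -1.82 as each library was left out, but passed only without Spleen WT 2 (adjusted p = 0.0479) and reached 0.0935 without TIL WT 4. In Flox, Mrpl45 had 9.82, 21.9 and 29.6 CPM in tumor, against 24.6, 23.9 and 19.3 CPM in spleen, and these ranges overlapped. For Mrpl54 the ranges overlapped in WT, with 8.20, 6.99, 4.08 and 10.4 CPM in tumor, against 5.12, 5.70, 9.77 and 5.26 CPM in spleen. Whether the tissue difference itself differed between genotypes was tested over all 14 libraries, and the edgeR adjusted p was 0.425 for both genes.

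Of 75 members tested in Flox, edgeR called 1 (background 7.87%), DESeq2 called 5 of 77 (Mrpl9, Mrpl10, Mrpl37, Mrpl54 and Mrps9; background 19%) and limma voom 1 (background 8.78%). At an unadjusted p under 0.05, 2 were higher in tumor (background 13.4%) and 6 lower (background 13.7%), and groups did not overlap for 15 of 75, against 33% of all genes. Of 75 tested in WT, edgeR called 1 (background 7.1%), DESeq2 5 of 72 (Mrpl33, Mrpl38, Mrpl45, Mrpl50 and Mrps5; background 18.2%) and limma voom 1 (background 8.2%). At an unadjusted p under 0.05, 3 were higher in tumor (background 13.6%) and 6 lower (background 13.3%), and groups did not overlap for 4 of 75, against 18% of all genes.

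Mrpl33 was higher in tumor in both genotypes without passing in the main edgeR fits. In WT it passed with DESeq2 (adjusted p = 0.00259) and with edgeR on all 14 libraries in 1 fit (adjusted p = 0.0231). It had 36.7, 121 and 70.3 CPM in TIL Flox, against 29.9, 31.0 and 35.3 CPM in Spleen Flox (log2 fold change 1.26 ± 0.59, edgeR adjusted p = 0.231, and 0.76 without TIL Flox 2). It had 278, 141, 138 and 43.2 CPM in TIL WT, against 39.6, 31.1, 22.0 and 9.02 CPM in Spleen WT (log2 fold change 2.57 ± 0.72, edgeR adjusted p = 0.0666). Neither pair of groups overlapped. Its annotated exons overlap with the transcript Gm43809 on the same strand.

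Other members leaned lower in tumor. Mrps33, of the small subunit, had 1.67, 1.53 and 3.27 CPM in TIL Flox, against 6.02, 10.9 and 3.27 CPM in Spleen Flox, and 0.781, 2.26, 1.83 and 4.78 CPM in TIL WT, against 2.76, 13.0, 10.4 and 8.65 CPM in Spleen WT. Its log2 fold changes were -1.62 ± 0.58 in Flox and -1.84 ± 0.64 in WT, with edgeR adjusted p of 0.138 and 0.111. In Flox, Mrps9 (-1.84 ± 0.46), Mrpl37 (-2.95 ± 0.85, and -1.81 without Spleen Flox 2) and Mrpl9 (-2.90 ± 1.01) had the smallest p among lower members. In WT these were Mrps5, which lines the mRNA entry (-2.99 ± 0.84), and Mrpl38 of the central protuberance (-1.33 ± 0.38). Among the members with higher values were Mrpl10 (4.56 ± 1.50, and 2.56 without TIL Flox 1) and Mrps6 (0.82 ± 0.39) in Flox, and Mrps21 (1.00 ± 0.37), Mrpl50 (3.21 ± 1.27, and 1.45 without TIL WT 4) and Mrpl20 (0.96 ± 0.48, and 0.56 without TIL WT 1) in WT. None of these passed in the main edgeR fits. With edgeR on all 14 libraries in 1 fit, Mrpl10 passed in Flox (adjusted p = 0.0360) and Mrps5 in WT (adjusted p = 0.0477). In Flox, edgeR also called Mrps9 when 5 CPM in 3 libraries were required (adjusted p = 0.0438) and Mrpl10 without TIL Flox 2 (adjusted p = 0.0486).

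For Dap3, the log2 fold change of tumor over spleen was -0.30 ± 0.41 in Flox. In WT it was 0.62 ± 1.19, and -2.45 without TIL WT 4, where the 3 remaining tumor libraries (8.02 to 15.8 CPM) all lay under the 4 spleen libraries (adjusted p = 0.0626).

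Between tissues, the median fold change of the small-subunit members lay under that of the large-subunit members in both genotypes. In Flox, 17 of the 25 tested small-subunit members were lower in tumor, with a median log2 fold change of -0.40, against 26 of 49 and -0.03 for the large subunit and 0.04 over all genes tested. In WT it was 18 of 25 with a median of -0.39, against 23 of 49 and 0.06 for the large subunit and 0.05 over all genes. Over all genes tested, 5229 of 10760 were lower in tumor in Flox and 5123 of 10560 in WT. The quartiles of all genes were -0.95 and 0.95 in Flox and -0.87 and 0.96 in WT. They give the spread of single genes, so they cannot show whether a median over 25 members is unusual. The 2 contrasts share no library. Of the 25 small-subunit members tested in both, 14 were lower in tumor in both genotypes, 4 were higher in both and 7 differed in sign. For the 48 large-subunit members these counts were 10, 11 and 27. The share of all genes that were lower in both was not computed. No member of the small subunit passed alone in the main edgeR fits, while DESeq2 called Mrps9 in Flox and Mrps5 in WT. No test was made of the list. Proliferation markers, 10 genes, summed to 810 to 2218 CPM in TIL Flox, against 312 to 458 CPM in Spleen Flox, and to 307 to 1719 CPM in TIL WT, against 175 to 631 CPM in Spleen WT. Sums of B cell and of fibroblast markers separated the tissues, while those of macrophage and monocyte markers overlapped. B cell markers summed to 49.5 to 309.8 CPM in the tumor libraries, against 442 to 2098 CPM in the spleen libraries. Fibroblast markers, 4 genes, summed to 8.07 to 109 CPM in tumor, with all 4 detected in each genotype, against 0 to 1.13 CPM in spleen, with Pdgfrb at 0 in Spleen Flox. Macrophage and monocyte markers, 9 genes, summed to 23.2 to 233 CPM in tumor, against 166 to 396 CPM in spleen. The part of these cells in the tissue differences of the members was not tested.

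**Figure D5:**
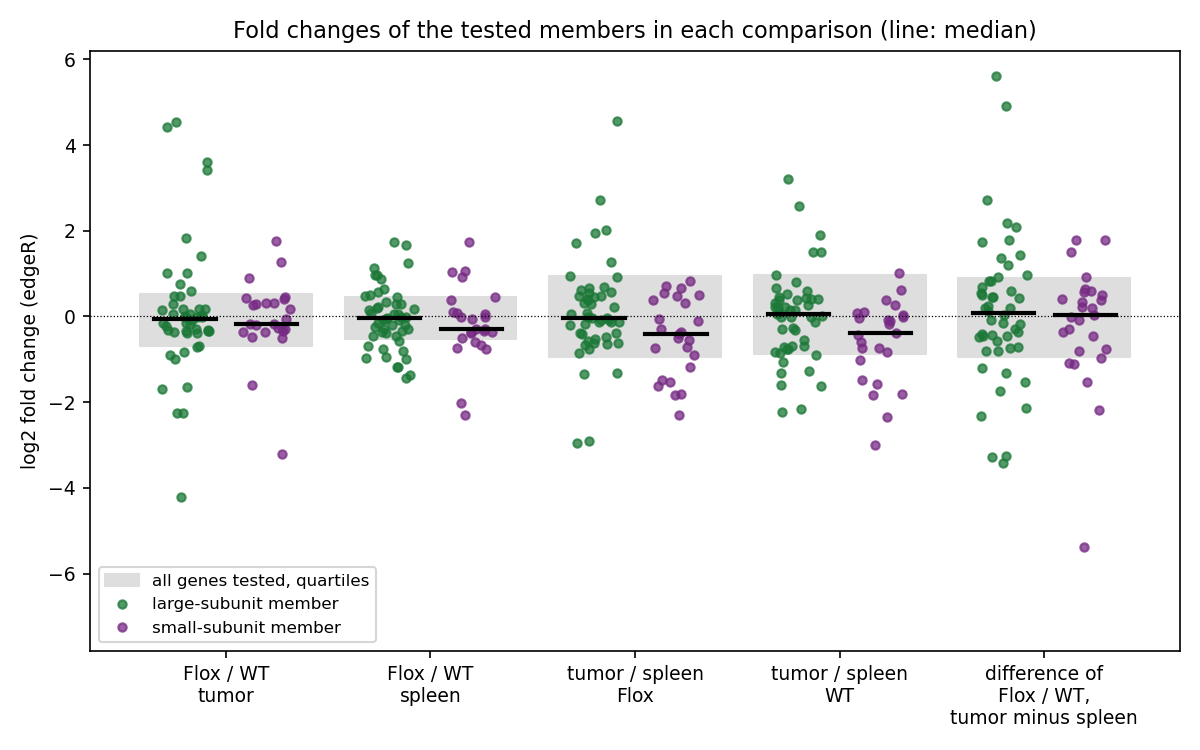
EdgeR log2 fold changes of the tested members in each comparison, large subunit in green and small subunit in purple, with the median as a line and the quartiles of all genes tested in grey. The small-subunit medians lie at -0.40 and -0.39 between tumor and spleen and at -0.18 and -0.29 between genotypes in tumor and in spleen.

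Between genotypes the median log2 fold change was -0.12 in tumor, against -0.06 over all genes tested, and -0.06 in spleen, against -0.06. In tumor 32 members were higher in Flox and 42 lower, and in spleen 32 and 44. Over all genes tested, 5043 were higher and 5734 lower in tumor, and 5068 and 5867 in spleen. Small-subunit medians were -0.18 in tumor and -0.29 in spleen, and large-subunit medians -0.06 and -0.05.

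The Flox and WT difference was also compared between tissues over all 14 libraries, with 78 members tested. None passed with edgeR (background 0%) or limma voom (background 0%), and DESeq2 called Mrpl10 (1 of 73, background 1.15%). At an unadjusted p under 0.05, 4 had a higher Flox over WT ratio in tumor than in spleen (Mrpl10, Mrpl19, Mrpl45 and Mrpl54; background 5.2%) and 1 a lower one (Mrps18b; background 5.59%). The differences of log2 fold changes were 5.61 ± 1.47 for Mrpl10 (3.58 without TIL Flox 1), 2.71 ± 1.13 for Mrpl19, 2.09 ± 0.74 for Mrpl45 and 1.73 ± 0.61 for Mrpl54. The edgeR adjusted p was 0.425 for Mrpl10, Mrpl45 and Mrpl54 and 0.440 for Mrpl19. Mrps18b (-5.37 ± 2.31) had 0.94, 0.638 and 0.113 CPM in TIL Flox, against 0.781, 0.215, 19.8 and 0.736 CPM in TIL WT, so 1 TIL WT library stood above the rest. Its difference was -2.98 without Spleen Flox 1, where it had 8.92 CPM, and without TIL WT 3 its counts were too low to be tested. Mrpl50, Mrps15 and Mrpl9 followed, at -3.29 ± 1.54, -1.52 ± 0.73 and -3.27 ± 1.69. Leaving out 1 library brought Mrpl50 to -1.47 (TIL WT 4), Mrps15 to -0.56 (Spleen Flox 2) and Mrpl9 to -1.54 (TIL WT 3). Dap3 had a difference of -0.96 ± 1.53, and 2.16 without TIL WT 4.

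Il23r lies on chromosome 6, and 7 members share that chromosome, a point looked at after the values were seen. The nearest, Mrpl35, lies 4.36 megabases away, and its log2 fold change of Flox over WT was -0.01 in tumor and 1.74 in spleen. Mrpl19, 14.5 megabases away, had 3.61 and 0.96, and Mrps35, 79.6 megabases away, had 1.28 and 1.74. For Mrpl53, Mrps25, Mrps33 and Mrpl51 the values lay between -0.36 and -0.0022 in tumor and between -1.38 and 0.48 in spleen.

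Other genes of mitochondrial translation were described beside the members by counts of passing genes. Between genotypes, 0 genes of 6 lists passed in either tissue. Those lists were ribosomal proteins under other symbols (4 genes tested in each tissue), assembly factors, translation factors, mitochondrial aminoacyl-tRNA synthetases, regulators of transcription and biogenesis, and mitochondrially encoded RNAs. The smallest p was that of Gatc, a part of the amidotransferase that completes glutaminyl-tRNA: it averaged 43.1 ± 22.5 CPM in Spleen Flox (SD, n = 3) and 4.86 ± 2.53 CPM in Spleen WT (SD, n = 4), with an edgeR adjusted p of 0.674.

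Between tissues, all 9 passing results of these lists were lower in tumor. The 5 in Flox (Tars2, Gatc, Ears2, Esrra and mt-Nd1) were each lost as any 1 of the 6 libraries was left out, with adjusted p between 0.0532 and 0.109 and log2 fold changes between -5.38 and -1.16. Of the 4 in WT, Esrra passed in all 8 such fits, Myc in 4, Tars2 in 2 and Ngrn in 1. With the replicate number as a block, of these 9 only Esrra in WT passed (edgeR adjusted p = 0.0386). The others had adjusted p between 0.0776 and 0.189 in that fit. Among the synthetases 3 of 20 tested genes fell in Flox and 1 of 18 in WT. Tars2, which charges threonine, fell in both: it averaged 6.36 ± 0.401 CPM in TIL Flox and 51.0 ± 26.7 CPM in Spleen Flox (log2 fold change -2.98 ± 0.57, edgeR adjusted p = 0.0315). In WT it averaged 6.15 ± 3.33 CPM in tumor and 112 ± 89.5 CPM in spleen (-4.17 ± 0.93, edgeR adjusted p = 0.0329). Gatc (-4.18 ± 0.64) and Ears2 (-4.32 ± 0.87) fell in Flox.

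Of the regulators, 1 of 14 fell in Flox and 2 of 13 in WT. Esrra, the nuclear receptor that drives many mitochondrial genes, averaged 3.48 ± 0.432 CPM in TIL Flox and 68.7 ± 46.5 CPM in Spleen Flox (-4.27 ± 0.69, edgeR adjusted p = 0.0225). In WT it averaged 2.75 ± 0.641 CPM in tumor and 64.1 ± 30.5 CPM in spleen (-4.53 ± 0.60, edgeR adjusted p = 0.00597). Myc, a growth regulator, fell in WT (-2.35 ± 0.50, edgeR adjusted p = 0.0270). Ngrn, an assembly factor, fell in WT (1 of 17 tested, -3.88 ± 0.92, edgeR adjusted p = 0.0394), and in Flox 0 of 18 passed.

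The mitochondrially encoded RNAs had 1 passing gene of 15, mt-Nd1 in Flox, which averaged 407 ± 66.2 CPM in TIL Flox and 992 ± 149 CPM in Spleen Flox (-1.27 ± 0.26, edgeR adjusted p = 0.0357). In WT 0 of 15 passed, and the median log2 fold changes of this list were -0.74 in Flox and -0.48 in WT. Of the translation factors (15 tested) and the ribosomal proteins under other symbols (4 tested), 0 passed in either genotype. The small number of passing genes stands beside 7.87% of all genes in Flox and 7.1% in WT.

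Some members overlap their neighbours. By annotation, 27 of the 79 share exonic bases with another gene, 18 of them with a protein-coding one, and whether counting used strand is not stated in the sources. Examples are Mrpl18 with Tcp1 and Mrpl9 with Oaz3 on the opposite strand, and Mrps6 with Slc5a3 on the same strand. Slc5a3, a myo-inositol transporter gene, itself rose in tumor (log2 fold change 1.05 ± 0.23 in Flox and 1.65 ± 0.30 in WT, edgeR adjusted p = 0.0428 and 0.0163, and in Flox 0 genes passed without Spleen Flox 2), beside 0.82 ± 0.39 for Mrps6 in Flox. Of the 50-base words in member transcripts, at least 1 also occurs in another gene's transcript for 42 members, and over 10% do for 15, with all words of Mrpl53 also in Gm42688 and 51.7% of those of Mrpl23 in Mrpl23-ps1. Values of these members are uncertain to that extent.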

How the data were processed

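Polyadenylated RNA of sorted Foxp3-YFP-positive Tregs was measured in 14 libraries, and the table the authors deposited holds raw counts of reads for each gene without normalization, per the file headers. The genome build is mm10, per the submitters' processing notes. Neither the aligner nor the counting tool, annotation or strand setting is named in the sources. Gene IDs were matched to symbols for 25275 genes. The 1904 unmatched IDs, with 1.25 to 1.95% of the counts of a library, stayed in the tests. Exon lengths and overlaps came from GENCODE M21 and promoters from RefSeq. The exon length of a gene is the union of the exons of all its protein-coding transcripts in the basic set.

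The test was edgeR 4.0.16 in R 4.3.3, a quasi-likelihood F test with TMM and filterByExpr by group, on the libraries of each comparison. P-values of every gene tested were adjusted by Benjamini-Hochberg, with a threshold of 0.05. The SE of a log2 fold change is its size divided by the square root of F. CPM are counts scaled to the total after TMM over 14 libraries. No 2 libraries of a group were duplicates, with a chi-square between 92.1 and 391 for each degree of freedom.

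Named members were Dap3 and, in each comparison, up to 4 per direction with the smallest p, the 5 highest and 5 lowest by mean CPM per kb, and members of ribosomal sites. From each pathway list at most 3 per comparison were eligible. Others were chosen after their values were seen. A gene of the B cell marker list is not reported here and was left out of its sums. The members and lists were chosen with earlier results of these data known. Alternatives were DESeq2 1.42.0, limma 3.58.1 (voom with quality weights), RLE normalization, leaving genes unfiltered, requiring 5 CPM in 3 libraries, all 14 libraries in 1 fit, the replicate number as a block, each library left out, and both WT replicate 2 libraries left out. Python 3.11.15 and matplotlib 3.10.9 drew the figures.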

Additional observations from a re-analysis of the deposited data

Results flagged for a closer look

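Of 52 comparisons of a WT library with the other 3 of its group, 11 (21.2%) had a highest or lowest library that stood apart by Dixon's criterion, which chance meets in about 1 in 20 groups of normally spread values. These comparisons were of named members, some named for such a library, and of the set's sum and median. Over all members tested in the 14 libraries the share was 13.5%, and over all 12008 genes tested 20.2%. In TIL WT 4 there were 4. Dap3 had 420 CPM there, against 8.02 to 15.8 CPM in the other TIL WT libraries. Mrpl37 had 85.3 CPM against 2.37 to 2.73 CPM, Mrpl40 had 68.3 CPM against 4.95 to 7.32 CPM, and Mrps5 had 2.08 CPM against 0.323 to 0.563 CPM. In TIL WT 3, Mrpl9 had 88.0 CPM against 7.23 to 11.2 CPM and Mrps18b had 19.8 CPM against 0.215 to 0.781 CPM, and the median over the members was the lowest of its group, at 4.08 CPM against 4.69 to 4.78 CPM.

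In spleen, Mrpl9 had 68.8 CPM in Spleen WT 4, against 6.35 to 7.96 CPM in the other Spleen WT libraries, and Mrpl19 had 9.02 CPM in the same library, against 6.40 to 6.71 CPM. Mrpl54 had 9.77 CPM in Spleen WT 3, against 5.12 to 5.70 CPM. Mrps6 had 5.94 CPM in Spleen WT 1, against 4.54 to 4.70 CPM. Groups of 3 Flox libraries were not examined in this way.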

How the results depend on the processing

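Of 681 recomputed values of the 43 named fold changes, 638 kept their direction and side of the threshold, 18 lost and 18 gained a call, and 7, of 3 named values, turned round. Between genotypes in tumor, edgeR called 0 genes, DESeq2 193 with 3 members, and limma voom 1 with 0 members. In spleen, edgeR called 0, DESeq2 118 with 1 member, the filter of 5 CPM in 3 libraries 1, all 14 libraries in 1 fit 4, and the fit without both WT replicate 2 libraries 1. For the difference between tissues DESeq2 called 121 genes with 1 member. For tumor over spleen in WT, 750 genes and 1 member became 2323 and 5 with DESeq2, 1514 and 3 with all 14 libraries in 1 fit, 329 and 0 without both WT replicate 2 libraries, and 0 members with no filter. In Flox, 847 genes and 1 member became 2468 and 5 with DESeq2, 457 and 0 with no filter, 2 members with the filter of 5 CPM and 2 with all 14 libraries in 1 fit. The cause of these changes was not tested.

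As each library was left out, the calls ran from 373 to 658 genes and from 0 to 1 member for tumor over spleen in WT, from 0 to 472 genes and from 0 to 1 member in Flox, from 0 to 1 gene between genotypes in spleen and from 0 to 1 gene for the difference. In Flox 0 genes passed without Spleen Flox 2 or without Spleen Flox 3, and 1 without Spleen Flox 1. Median log2 fold changes of the members ran from -0.20 to 0.13 between genotypes in tumor, from -0.19 to -0.0057 between genotypes in spleen, from -0.27 to 0.03 for tumor over spleen in Flox, from -0.22 to 0.058 for tumor over spleen in WT, and from -0.21 to 0.28 for the difference. That of tumor over spleen in WT was -0.24 with limma voom. The log2 ratio of summed CPM of tumor over spleen in WT was 0.16, -0.29 on library totals without TMM and -0.27 with the median over members in place of the sum. Dap3 turned round from 0.62 for tumor over spleen in WT to -1.16 with limma voom and ran from -2.45 to 1.04 as libraries were left out. Its difference between tissues turned from -0.96 to 0.89 with limma voom and ran from -1.35 to 2.16. Mrpl40 between genotypes in tumor ran from -2.08 to 0.054.

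Same-numbered libraries correlated between -0.03 and 0.05 in their deviations from group means, and differently numbered ones between -0.11 and 0.07. The second range contains the first, so this check cannot tell whether replicate numbers pair the libraries. Among WT libraries, Y-linked sums above 1.56 CPM were found only in TIL WT 2 (127 CPM) and Spleen WT 2 (37.6 CPM), which share a number. Whether these came from the same mouse was not tested, and the main tests treated tumor and spleen as unpaired. With the replicate number as a block, tumor over spleen called 173 genes and 0 members in WT (member median -0.18) and 1 gene and 0 members in Flox. With that block Dap3 was -1.71 for tumor over spleen in WT and 1.35 for the difference.

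The biological coefficient of variation lay between 0.721 and 0.852, with 3 or 4 libraries a group, and this spread limits the size of difference that passes. Members with under 10 counts numbered 2 to 14 per library.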
